A study of Mus musculus with 16 samples.

Results

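Inhibins, activins and anti-Mullerian hormone (AMH) are hormones of the TGF-beta superfamily that granulosa cells make, and 10 genes of this system, of 57010 genes counted, were described across 4 groups of mouse granulosa cells (mGCs). They were chosen by name: Inha, Inhba and Inhbb encode the hormone subunits, Fst the activin-binding protein follistatin, Amh and Amhr2 the AMH hormone and its receptor, Acvr2a, Acvr1b and Bmpr2 receptors of activins and bone morphogenetic proteins (BMPs), and Bmp2 a BMP ligand. All 10 had counts in every group. RNA-seq of mGCs covered 16 libraries in 2 experiments, namely freshly isolated cells of a Con group (n = 5) and an EM group (n = 5), and cultured cells of the EM model given PBS (n = 3) or 14,15-EET (EET, n = 3).

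The mice were females of the outbred ICR strain, bought at 6 weeks of age. In the EM group, endometrium from estradiol-treated donors was stitched onto the bowel mesentery, so the lesions were allografts, while Con mice had a sham operation without tissue. Recipients kept their ovaries, received estradiol after surgery, had a washout, and had ovulation induced with PMSG or HCG. The methods do not say which of these gonadotropins preceded the RNA-seq harvest. Fresh cells of both the Con and the EM group were taken after ovulation induction. Whether Con mice also received estradiol is not stated. For the culture experiment, a figure legend has cells of 6 EM mice first kept 24 h in DMEM/F12 medium containing 5% serum. They were then given 100 nM 14,15-EET, an epoxide of arachidonic acid, or an equal volume of PBS for 24 h. The methods and labels mention only 24 h of culture for the PBS group. The PBS and EET groups therefore both carry the EM model and the culture, no group holds cultured cells of Con mice, and which mice entered which library is not spelled out. The methods describe cells split between both treatments and 3 paired replicates, without saying whether the replicate numbers mark the pairs.

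Inhibin is a dimer of the alpha subunit (Inha) with a beta subunit (Inhba or Inhbb), and it lowers the release of follicle-stimulating hormone from the pituitary. Activins are dimers of beta subunits alone. They act through type II receptors such as ACVR2A and the type I receptor ACVR1B, which activate SMAD2 and SMAD3, and follistatin binds and neutralizes them. AMH comes from granulosa cells of small growing follicles, signals through AMHR2 and restrains the growth of further follicles, and its expression falls as a follicle nears ovulation.

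Total counts ran from 14229123 to 15999234 in the fresh libraries and from 21384686 to 29482826 in the cultured ones. Mitochondrial genes took 21.8% of counts in EM-mGC-3, 6.76% to 11.1% in the other fresh libraries and 1.18% to 1.64% in the cultured ones. Among 9 granulosa markers, the summed level was 5463 to 6674 CPM (counts scaled to the size of the library) in Con, 3549 to 8854 in EM, 1773 to 2046 in PBS and 1612 to 1695 in EET. Foxl2, a transcription factor that defines granulosa cells, stood at 219 CPM in EM and 146 CPM in PBS, whereas Cyp19a1, the aromatase gene, stood at 289 and 0.169 CPM. Gata4 of the same list had a higher mean in PBS (605.4 CPM) than in EM (212.1 CPM), and the other granulosa markers had lower ones. The fresh cells carried markers of other cells, described beside the results they move with.

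Promoters were read from RefSeq (GRCm38.p6), which held the 250 bases before the start of 7 of the 10 genes. Of these bases, 160 for Inha, 5 for Acvr1b and all 250 for Bmpr2 lie in exons of the GENCODE annotation, so those windows are not purely upstream sequence. Those of Inhba, Inhbb and Amhr2 are shown, the first pair because their order of abundance differed between fresh and cultured cells, and Amhr2 because it carried the rarest of the searched motifs. They lie at chr13:16011601-16011850 (plus strand), chr1:119422249-119422498 (minus strand) and chr15:102445117-102445366 (plus strand), written 5′ to 3′. Capitals mark CAAGGTCA, the extended site that NR5A receptors such as steroidogenic factor 1 bind.
Inhba: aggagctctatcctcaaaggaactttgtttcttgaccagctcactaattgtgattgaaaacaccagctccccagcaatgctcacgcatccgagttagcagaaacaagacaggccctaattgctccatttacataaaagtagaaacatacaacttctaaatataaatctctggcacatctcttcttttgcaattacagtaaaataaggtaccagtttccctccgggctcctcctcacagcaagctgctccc
Inhbb: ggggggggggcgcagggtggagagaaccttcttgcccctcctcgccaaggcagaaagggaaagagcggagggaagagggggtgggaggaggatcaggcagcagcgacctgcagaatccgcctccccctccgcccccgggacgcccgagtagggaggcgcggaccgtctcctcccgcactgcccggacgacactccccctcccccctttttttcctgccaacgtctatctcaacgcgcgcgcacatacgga
Amhr2: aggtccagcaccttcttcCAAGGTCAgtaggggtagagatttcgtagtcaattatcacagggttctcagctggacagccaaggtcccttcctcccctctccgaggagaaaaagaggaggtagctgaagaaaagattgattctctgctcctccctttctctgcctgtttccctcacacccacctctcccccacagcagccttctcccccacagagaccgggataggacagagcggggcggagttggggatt

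Both strands were searched for 6 motifs, and any of them found in these windows is a description of letters only. CAAGGTCA, held by 1.33% of 32851 mouse promoters of the same length, lay 232 to 225 bases before the Amhr2 start, and the shorter AGGTCA (14.0% of promoters) is contained in it. An E-box (CANNTG, 66.2% of promoters) lay 184 to 179 bases before the same start. Inha held AGGTCA 69 to 64 bases before its RefSeq start, in the window that is partly exonic, and Acvr1b held an E-box. The cAMP response element core TGACG (17.8%), the AP-1 site TGANTCA (6.75%) and the GATA site AGATAA (9.99%) were in none of the 7 windows, and the Inhba and Inhbb windows held none of the 6 motifs.

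The 3 subunit genes had the highest means in every group. On a scale of CPM per kb of exon, which allows genes to be compared, Inha had the highest mean in each group, at 3554 ± 710 (SD, n = 5) in Con, 3221 ± 1209 (n = 5) in EM, 1926 ± 186 (n = 3) in PBS and 1492 ± 132 (n = 3) in EET. In Con, Inhbb (591 ± 92.5) came next, then Inhba (352 ± 83.0), Fst (134 ± 17.4), Amhr2 (54.9 ± 7.92), Amh (39.6 ± 18.4), Bmpr2 (31.0 ± 4.08), Bmp2 (6.76 ± 1.62), Acvr1b (5.42 ± 0.258) and Acvr2a (3.71 ± 0.530). The ranges of Amhr2, Amh and Bmpr2 overlapped their neighbours in this order, as did those of Bmp2 and Acvr1b, so these neighbours did not differ beyond their spread. In EM the order of the first 7 genes was that of Con, the ranges of Inhbb, Inhba and Fst overlapped (121.9 to 748 for Inhba, 61.7 to 192 for Fst), and Acvr1b (5.86 ± 0.585) stood above Bmp2 (4.12 ± 0.896) with overlap. In PBS the order differed from that of Con at 3 points. Inhba (348 ± 11.01) stood above Inhbb (239 ± 7.90) without overlap, Amh was last at 0.181 ± 0.0713, and both Acvr1b (6.86 ± 0.153) and Acvr2a (3.08 ± 0.406) stood above Bmp2 (2.04 ± 0.991), with Acvr2a and Bmp2 overlapping. The order in EET was that of PBS.

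**Figure D1:**
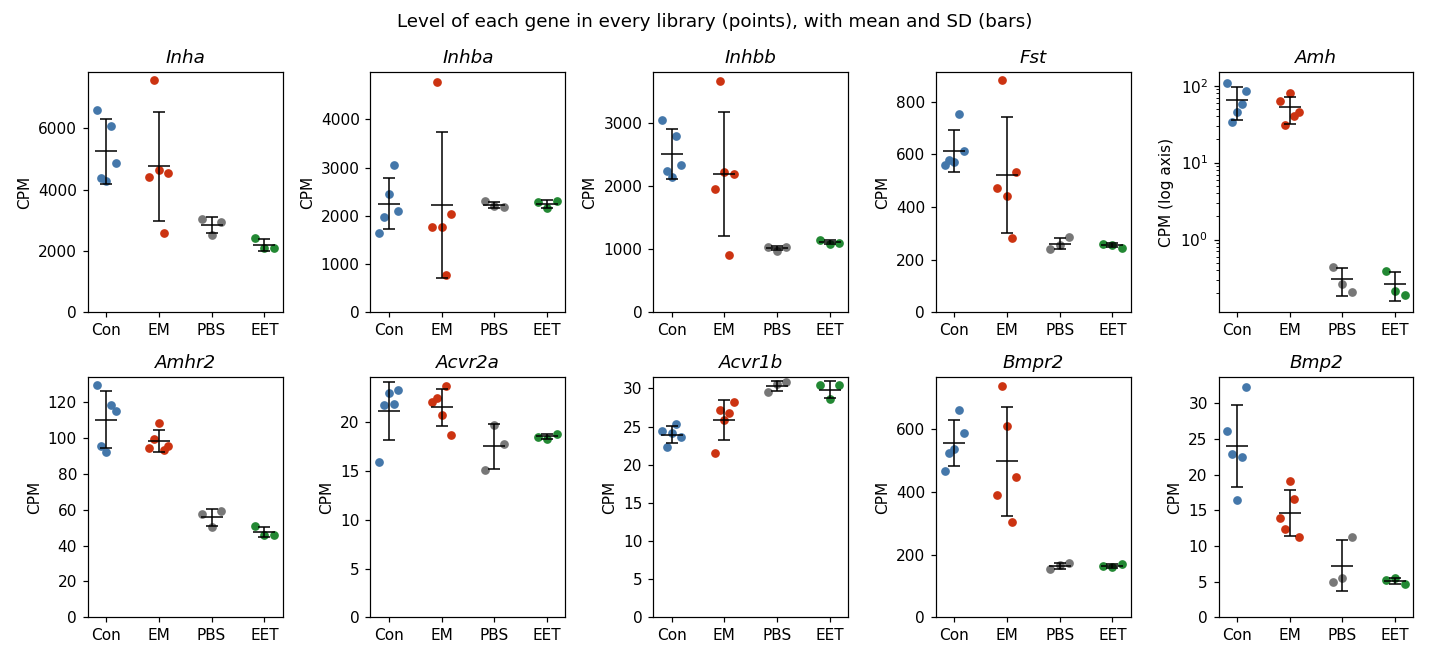
Level of the 10 genes in each library, in CPM (linear axes from 0, log axis for Amh), by group (Con, EM, PBS, EET); points are libraries and bars are mean and SD. Among the EM libraries, EM-mGC-2 is the highest and EM-mGC-4 the lowest for Inha, Inhba, Inhbb, Fst and Bmpr2, and Amh is near 0.3 CPM in both cultured groups.

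Comparing EM with Con asks what the endometriosis model changes in freshly isolated mGCs. By edgeR's quasi-likelihood test, 0 of the 10 genes passed an adjusted p of 0.05, with 0% of the 17229 genes tested passing. At an unadjusted p under 0.05 the count was 1 of 10 members, Bmp2, against 9.44% of all genes. DESeq2 called 0 of the 10 members at an adjusted p of 0.05 and 116 of the 35663 genes it was given. By DESeq2, 1 member had an unadjusted p under 0.05, beside 2154 of those 35663 genes. Of the members, 8 had a lower mean in EM and 2 a higher mean, with a median log2 fold change of -0.17 against -0.01 over all genes. Overlap between groups was judged on CPM scaled within each comparison, which can differ slightly from the levels printed here on a scale shared by all libraries. For 0 of the 10 members did EM and Con not overlap, against 1.69% of genes tested (0.917% higher and 0.778% lower).

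Comparing EET with PBS asks what 14,15-EET changes in cultured mGCs of EM mice. Of the 9 members tested, 1 passed (Inha, lower), against 1.22% of the 15050 genes tested, 0.498% in the higher and 0.724% in the lower direction. The groups did not overlap for 3 of the 9, higher in EET for Inhbb and lower for Inha and Amhr2, against 17.6% of all genes, 8.48% higher and 9.17% lower. With the replicate number as a block, 341 genes passed against 184 without it, and Inha again was the member that passed (adjusted p = 0.00751). Amh had too few counts to enter these tests.

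Comparing PBS with EM sets cultured against fresh cells of the same model. Culture, other mice and a separate sequencing experiment cannot be told apart in it, and it shares libraries with each of the other comparisons. Of the 10 members, 7 passed, all lower in PBS, while 69.0% of 17301 genes passed, 37.9% in the lower direction. The share of members that passed was thus near that of all genes. Their median log2 fold change was -0.93, against -0.11 over all genes tested. The groups did not overlap for 6 of the 10, higher in PBS for Acvr1b and lower for 5, against 66.3% of genes (31.3% higher, 35.0% lower). Fewer cells of a type and less RNA per cell cannot be told apart in bulk samples such as these.

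**Figure D2:**
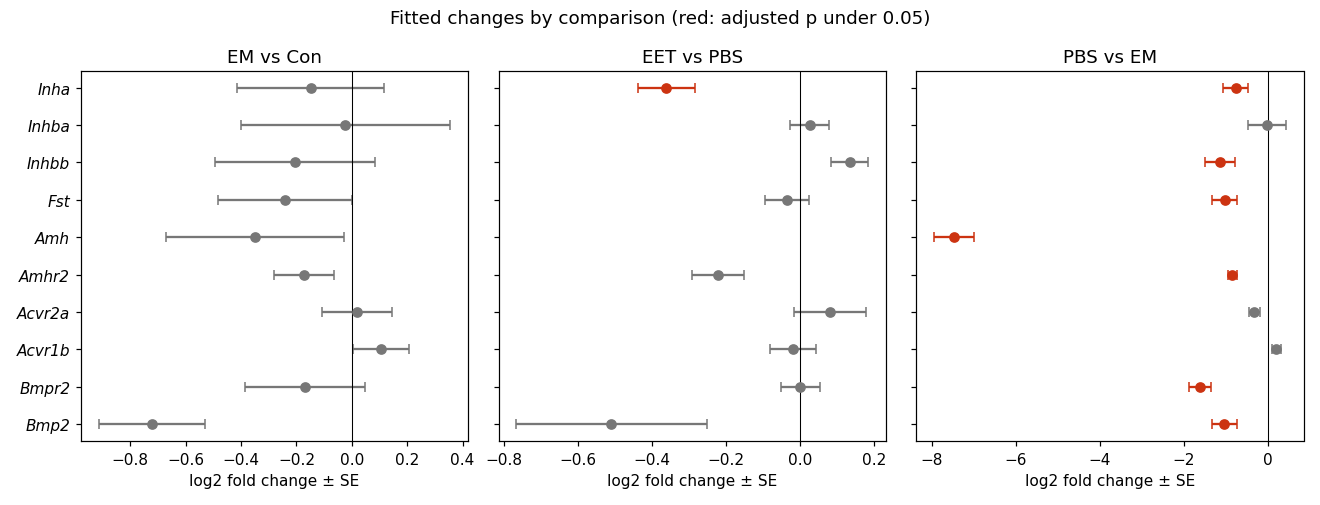
The log2 fold changes (x axis) of the 10 genes (rows) in each comparison from edgeR, with bars of 1 SE and red for an adjusted p under 0.05. No gene is red in EM vs Con, Inha alone is red in EET vs PBS (Amh was not tested), and 7 genes lie on the lower side in red in PBS vs EM, led by Amh.

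Inha (chromosome 1, 75483721 to 75487010, plus strand, GRCm39), the subunit shared by all inhibins, was the member that passed in EET vs PBS. Its level was 3050, 2531 and 2940 CPM in PBS-1 to PBS-3 and 2426, 2100 and 2078 CPM in EET-1 to EET-3. Every EET library was below every PBS library, and edgeR gave a log2 fold change of -0.36 (SE 0.08, adjusted p = 0.0430). Leaving out PBS-3 (adjusted p = 0.145), EET-2 (0.251) or EET-3 (0.280) ended this call, with fold changes between -0.44 and -0.31 over all single omissions. Summed marker levels were also lower in EET than in PBS without overlap for the granulosa list (1612 to 1695 against 1773 to 2046 CPM). The same held for the luteinizing list (7254 to 7608 against 8120 to 8765 CPM) and the surface epithelium list (78.7 to 83.9 against 97.1 to 103 CPM). The largest falls in these lists were of Gja1 (mean 580 CPM in PBS, 442 in EET), Sfrp4 (2546 and 1721) and Krt18 (96.2 and 78.2). Other genes of the same lists had higher means in EET, such as Fshr (5.16 and 5.88), Prlr (33.5 and 45.1) and Krt19 (0.590 and 0.798). The part of these lists in the Inha difference was not tested.

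In fresh cells Inha stood at 6609, 4378, 4288, 6084 and 4850 CPM in Con-mGC-1 to Con-mGC-5, and at 4399, 7560, 4651, 2593 and 4555 CPM in EM-mGC-1 to EM-mGC-5. The EM group held both the highest library and the lowest, and it spanned the Con range. The fitted EM-to-Con change was -0.15 (log2, SE 0.26, edgeR adjusted p = 0.872). In PBS vs EM, Inha was lower by a log2 fold change of -0.76 (SE 0.30, edgeR adjusted p = 0.0450), although the EM-mGC-4 level lay among the PBS levels. That call held without EM-mGC-4 and ended when any other single EM or PBS library was left out, at fold changes between -0.93 and -0.57.

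Inhba (chromosome 13, 16186436 to 16206206, plus strand), which encodes the beta A subunit of activin A and inhibin A, had nearly the same mean in all 4 groups. It stood at 1651, 1984, 2447, 3047 and 2101 CPM in the Con libraries and at 1760, 4782, 1772, 779 and 2027 CPM in the EM libraries. EM-mGC-2 stood 6.14-fold above EM-mGC-4, and the coefficient of variation was 67.8% in EM and 23.6% in Con. In culture it was 2303, 2193 and 2172 CPM in PBS and 2287, 2159 and 2313 CPM in EET, and these ranges overlapped. The edgeR log2 fold changes were -0.02 in EM vs Con (SE 0.38, adjusted p = 0.987), 0.03 in EET vs PBS (SE 0.05, adjusted p = 0.885) and -0.01 in PBS vs EM (SE 0.45, adjusted p = 0.980). An antisense gene and a predicted gene overlap Inhba, with at most 213 counts in a library, and the strand setting of the counting is not stated.

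Inhbb (chromosome 1, 119343195 to 119349978, minus strand), which encodes the beta B subunit, was lower in cultured than in fresh cells. Fresh levels were 3056, 2241, 2146, 2799 and 2328 CPM in Con and 1959, 3675, 2218, 914 and 2190 CPM in EM, and EM vs Con gave a log2 fold change of -0.21 (SE 0.29, edgeR adjusted p = 0.835). EM-mGC-2 was again the highest of the EM libraries and EM-mGC-4 the lowest. PBS libraries held 1036, 977 and 1034 CPM, above EM-mGC-4 and below the other EM libraries, and PBS vs EM gave -1.13 (SE 0.36, edgeR adjusted p = 0.0170). The call ended without PBS-1 (adjusted p = 0.0543), PBS-2 (0.0610) or PBS-3 (0.0517), where edgeR still gave a lower level.

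With 14,15-EET, Inhbb read 1150, 1088 and 1092 CPM, each above all PBS libraries. That difference, a log2 fold change of 0.13 (SE 0.05), had an adjusted p of 0.285 by edgeR and did not pass. The alpha and beta B transcripts thus stood on opposite sides of PBS, and of them the alpha transcript passed.

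Ratios within a library, from counts per kb, put the subunits on a common footing. The ratio of Inha to the sum of Inhba and Inhbb was 3.76 ± 0.496 in Con (n = 5), 4.02 ± 0.750 in EM (n = 5), 3.28 ± 0.246 in PBS (n = 3) and 2.43 ± 0.173 in EET (n = 3). EET and PBS did not overlap, and the mean log2 ratio was lower in EET by 0.43 (difference -0.43, exact two-sided permutation p = 0.1, the smallest that 3 against 3 libraries allow, 0.6 after adjustment over 6 tests). EM and Con differed by 0.09 on the log2 scale (exact permutation p = 0.571, adjusted 0.786). All groups had more alpha than beta transcript per kb.

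Inhba to Inhbb was 0.607 ± 0.157 in Con and 0.636 ± 0.133 in EM, with ranges of 0.360 to 0.759 and 0.532 to 0.866. It was 1.46 ± 0.0521 in PBS and 1.35 ± 0.0505 in EET, and both cultured ranges, 1.40 to 1.495 and 1.32 to 1.41, lay above all fresh libraries. Beta B was thus the more abundant beta transcript per kb in fresh cells and beta A in cultured cells. The order in fresh cells depends on the exon lengths used, 6390 bases for Inhba and 4255 for Inhbb. By CPM, Inhba was the higher in Con-mGC-3 (2447 against 2146), Con-mGC-4 (3047 against 2799) and EM-mGC-2 (4782 against 3675), and Inhbb in the other fresh libraries. Within the experiments, the ratio differed by 0.09 (log2, EM minus Con, exact permutation p = 0.730) and by -0.11 (EET minus PBS, exact permutation p = 0.2).

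**Figure D3:**
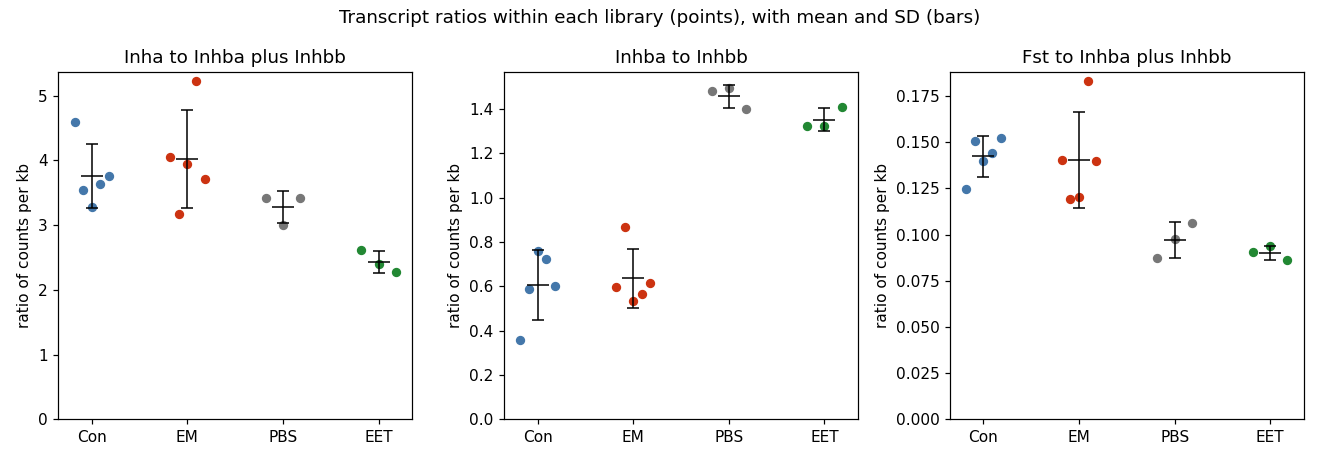
Ratios of counts per kb (y axes, linear from 0) within each library for Inha to Inhba plus Inhbb, Inhba to Inhbb, and Fst to Inhba plus Inhbb, by group, with mean and SD. The Inhba to Inhbb ratio lies below 1 in the 10 fresh libraries and above 1 in the 6 cultured ones, and the Inha ratio in EET lies below that in PBS.

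Fst (chromosome 13, 114588826 to 114595487, minus strand) encodes follistatin. It read 558, 578, 570, 752 and 613 CPM in Con and 474, 881, 441, 283 and 534 CPM in EM. Apart from EM-mGC-2, the EM libraries were below all Con libraries, but the groups overlapped and EM vs Con gave -0.24 (log2, SE 0.24, edgeR adjusted p = 0.760). In culture it was 241, 257 and 285 CPM in PBS and 261, 255 and 245 CPM in EET.

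The EET values of Fst fell inside the PBS range, with a log2 fold change of -0.03 (SE 0.06, edgeR adjusted p = 0.849). PBS vs EM gave -1.02 (SE 0.30, edgeR adjusted p = 0.0117), and the call held without any single library, although PBS-3 and EM-mGC-4 were nearly level. The ratio of Fst to both beta transcripts was 0.142 in Con, 0.141 in EM, 0.0970 in PBS and 0.0902 in EET, with exact permutation p = 0.786 for EM against Con and 0.3 for EET against PBS.

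Amh (chromosome 10, 80641077 to 80643482, plus strand) showed the largest difference between fresh and cultured cells among the members. Levels were 109, 33.4, 45.1, 58.4 and 84.5 CPM in Con and 64.2, 31.0, 80.5, 39.9 and 45.4 CPM in EM. In PBS they were 0.436, 0.263 and 0.208 CPM, or 8, 6 and 5 counts, and in EET 0.391, 0.217 and 0.192 CPM, or 10, 5 and 4 counts. Counts in the fresh libraries ran from 512 to 1796, so the fresh and cultured libraries were far apart.

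The PBS-to-EM change of Amh was a log2 fold change of -7.46 (SE 0.48, edgeR adjusted p = 1.333e-06), which is 177-fold lower, and it held without any single library at fold changes between -7.76 and -7.25. EM and Con overlapped, with a log2 fold change of -0.35 (SE 0.32, edgeR adjusted p = 0.744). With at most 10 counts in a cultured library, no effect of 14,15-EET on Amh was detectable at this depth.

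Amhr2 (chromosome 15, 102353802 to 102363068, plus strand), the receptor specific to AMH, was lower in cultured cells. Con libraries held 130, 95.4, 92.0, 118 and 115 CPM and EM libraries 94.5, 99.2, 108, 93.0 and 95.4 CPM, overlapping with a log2 fold change of -0.17 (SE 0.11, edgeR adjusted p = 0.621). PBS libraries held 57.5, 50.5 and 59.1 CPM, below all fresh libraries, and PBS vs EM gave -0.84 (SE 0.10, edgeR adjusted p = 4.638e-05).

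The EET levels of Amhr2 were 50.9, 45.8 and 45.8 CPM. EET-2 and EET-3 lay below all PBS libraries, and EET-1 lay close to PBS-2 and below the others (scaled within this comparison, all EET libraries were below PBS). The log2 fold change was -0.22 (SE 0.07) and did not pass (edgeR adjusted p = 0.187), except when PBS-2 was left out (0.0332).

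Bmpr2 (chromosome 1, 59802559 to 59918173, plus strand), a type II receptor of BMPs and of some growth and differentiation factors, ranged from 468 to 663 CPM in Con, 304 to 738 in EM, 155 to 174 in PBS and 160 to 171 in EET. It was lower in PBS than in EM without overlap, at a log2 fold change of -1.61 (SE 0.27, edgeR adjusted p = 0.000484). EM vs Con gave -0.17 (SE 0.22, edgeR adjusted p = 0.817), and the EET and PBS ranges overlapped (edgeR adjusted p = 0.9995).

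Neither activin receptor passed in any comparison. Acvr2a (chromosome 2, 48704121 to 48793281, plus strand), a type II receptor, ranged from 15.9 to 23.2 CPM in Con, 18.6 to 23.7 in EM, 15.1 to 19.7 in PBS and 18.3 to 18.8 in EET. Its log2 fold changes were 0.02 in EM vs Con (SE 0.13, edgeR adjusted p = 0.972), 0.08 in EET vs PBS (SE 0.10, adjusted p = 0.774) and -0.31 in PBS vs EM (SE 0.14, adjusted p = 0.0620). The last of these passed with RLE scaling (adjusted p = 0.0419), with at least 10 counts in every library (0.0103), and without EM-mGC-3 (0.0465) or EM-mGC-5 (0.0381). Orc4 overlaps it on the opposite strand with up to 1010 counts in a library, so its counts are uncertain.

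Acvr1b (chromosome 15, 101071948 to 101111565, plus strand), the type I activin receptor, ranged from 22.3 to 25.4 CPM in Con, 21.5 to 28.2 in EM, 29.6 to 30.9 in PBS and 28.6 to 30.5 in EET. It was the only member whose PBS libraries all lay above the EM libraries. That difference, a log2 fold change of 0.21 (SE 0.11), did not pass by edgeR (adjusted p = 0.127) and did pass when all 16 libraries were fitted together (adjusted p = 0.0359). EM vs Con gave 0.10 (SE 0.10, edgeR adjusted p = 0.753) and EET vs PBS -0.02 (SE 0.06, edgeR adjusted p = 0.930).

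Bmp2 (chromosome 2, 133394079 to 133404805, plus strand), a ligand that signals through BMPR2 to SMAD1 and SMAD5, had the smallest p of the members in EM vs Con. Con libraries held 26.1, 22.9, 16.5, 22.4 and 32.2 CPM and EM libraries 14.0, 12.4, 19.1, 16.6 and 11.2 CPM. Con-mGC-3 was below EM-mGC-3 and EM-mGC-4, and otherwise Con stood above EM. The log2 fold change was -0.72 (SE 0.19, edgeR adjusted p = 0.376), so it did not pass, and DESeq2 gave an adjusted p of 0.0677.

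Markers of other cells also differed between EM and Con. The summed level of 6 stromal markers was 1443 to 1587 CPM in Con and 578 to 1361 CPM in EM, without overlap, and that of 6 endothelial markers was 148 to 172 and 84.1 to 148 CPM, with none of either list at 0. Neutrophil markers, 6 in all, summed to 5.70 to 49.99 CPM in Con and 34.7 to 157 CPM in EM, and 5 red blood cell markers to 3461 to 5456 and 2442 to 16070 CPM, with EM-mGC-3 the highest. The part of these lists in the Bmp2 values was not tested.

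In culture Bmp2 read 4.91, 5.58 and 11.3 CPM in PBS and 5.20, 5.55 and 4.65 CPM in EET. PBS-3 stood apart, and the PBS-to-EM log2 fold change of -1.03 (SE 0.30, edgeR adjusted p = 0.0113) ended without PBS-1 (0.0551) or PBS-2 (0.0569). EET vs PBS gave -0.51 (SE 0.26, edgeR adjusted p = 0.448), and it passed when genes were not filtered on low counts (adjusted p = 0.0165). Without PBS-3 the log2 fold change was -0.03 (edgeR adjusted p = 0.973), so the value rests on that library.

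Most markers of other cells were also lower in the cultured libraries, beside each of the PBS-to-EM differences above. Between EM and PBS, summed levels went from 101 to 779 down to 1.20 to 1.36 CPM for 9 oocyte markers, from 84.1 to 148 down to 4.08 to 5.02 CPM for the endothelial list, and from 578 to 1361 down to 240 to 326 CPM for the stromal list. For 6 leukocyte markers they went from 76.3 to 157 down to 11.1 to 11.7 CPM, for 6 neutrophil markers from 34.7 to 157 down to at most 0.0546 CPM with 5 at 0, and for 5 red blood cell markers from 2442 to 16070 down to 0.208 to 0.220 CPM with 3 at 0. In PBS, Zp1, Figla, Nlrp5 and Oosp1 of the oocyte list were at 0. Of the stromal list, Col1a1 had a higher mean in PBS (232.9 CPM) than in EM (186.8 CPM) and made up most of the PBS sum. Dcn, Col1a2, Col3a1, Pdgfra and Lum had lower means in PBS.

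For the remaining lists the sums were not lower throughout, and some were carried by a few genes. In EM and PBS, 5 smooth muscle markers summed to 98.4 to 252.2 and 571 to 767 CPM, and 6 theca markers to 529 to 854 and 3594 to 4323 CPM. The smooth muscle sum was mostly Acta2 (131.5 CPM in EM, 624.7 in PBS). Cnn1 (6.03 and 10.84) and Tagln (1.01 and 1.66) also had higher means in PBS, while Myh11 (20.25 and 5.49) and Des (8.51 and 0.686) had lower ones. The theca sum in PBS was mostly Aldh1a1 (432 CPM in EM, 3891 in PBS), while Cyp17a1, which defines theca cells, went from 207 to 0.0364 CPM. A luteinizing list of 8 genes summed to 6864 to 14130 and 8120 to 8765 CPM, of which Cyp11a1 (6863 and 5243 CPM) and Sfrp4 (1771 and 2546 CPM) made up most, whereas Lhcgr, the luteinizing hormone receptor, went from 825 to 0.331 CPM and Prlr, the prolactin receptor, from 437 to 33.5 CPM. Surface epithelium markers, 5 in all, summed to 55.3 to 141 and 97.1 to 103 CPM, of which Krt18 was 96.2 CPM in PBS, while Upk3b went from 37.3 to 1.60 CPM and Krt19 from 34.2 to 0.590 CPM. The sum of 10 ovulation response genes was 105 to 194 and 367 to 523 CPM. In PBS it was mostly Adamts1 (106.3 CPM in EM, 291.4 in PBS) and Ptgs2 (11.85 and 113.5). Tnfaip6 and Ptx3 also had higher means in PBS, while Pgr, Has2, Areg, Ereg, Btc and Edn2 had lower ones. The part of any of these in the members' differences was not tested.

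Across the 10 fresh libraries, correlations were computed for all 45 pairs of members on log2 CPM with 100000 permutations, and 11 pairs passed after adjustment by Pearson's r and 1 by Spearman's rho. Inha and Inhbb had r = 0.975 (permutation p = 3e-05, adjusted 0.00135) and rho = 0.903 (permutation p = 0.00068, adjusted 0.0306), and r was 0.962 without EM-mGC-2 and EM-mGC-4, the farthest libraries, and 0.975 for deviations from the group means. Inhba and Fst had r = 0.956 (permutation p = 0.00015, adjusted 0.00337) and rho = 0.842 (permutation p = 0.00353, adjusted 0.0687), with r = 0.804 without the same libraries (adjusted permutation p = 0.209).

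The Inha and Inhba pair behaved differently. Its r of 0.822 (adjusted permutation p = 0.0421) was 0.111 without EM-mGC-2 and EM-mGC-4, so this relation rests on those libraries. Without the 2 libraries farthest from the median of a pair's first-named gene, 3 pairs passed. They were Inha with Inhbb, Inha with Amhr2 (r = 0.910) and Inhbb with Amhr2 (r = 0.881), all without EM-mGC-2 and EM-mGC-4. Over all 10 libraries, Inha with Amhr2 had r = 0.575 (adjusted permutation p = 0.267) and Inhbb with Amhr2 r = 0.495 (adjusted permutation p = 0.379). Neither of these pairs passed there by Pearson's r or Spearman's rho. EM-mGC-2 and EM-mGC-4 also held the highest and lowest sums of the granulosa markers, 8854 and 3549 CPM, and the part of this in the correlations was not tested. Each group has too few libraries for its own correlation.

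**Figure D4:**
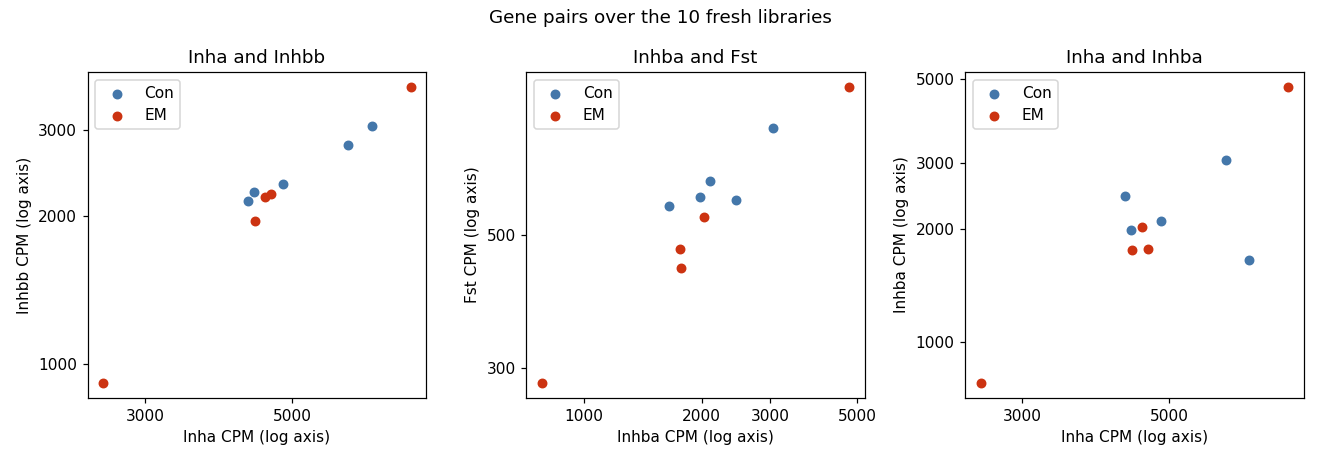
CPM of gene pairs (log axes) in the 10 fresh libraries, blue for Con and red for EM, for Inha and Inhbb, Inhba and Fst, and Inha and Inhba. Inha and Inhbb lie along a line with or without the extreme libraries EM-mGC-2 (top right) and EM-mGC-4 (bottom left), and Inha and Inhba do not.

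Genes whose log2 CPM followed a member most closely were sought among 10438 genes in the same 10 libraries, as a description. For Inha these were Pofut2 (Pearson's r = 0.992), Adgrg1 (0.987) and Slc38a5 (0.979), and for Inhba Fam122b (0.986), Slc26a7 (0.971) and Socs2 (0.968). For Amh they were Gstk1 (0.883), Ampd3 (0.860) and Suds3 (0.858). The points share the libraries, among which EM-mGC-2 and EM-mGC-4 are extreme for Inha and Inhba.

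Beyond the members, 72 other genes of the superfamily's signalling were followed, all of them in the tables. In EM vs Con, 0 of 61 tested passed by edgeR and 0 of 70 by DESeq2. At an unadjusted edgeR p under 0.05 there were 4, beside 9.44% of all genes. DESeq2 gave 5 at this threshold, beside 2154 of the 35663 genes it was given. The 4 were Id1 (log2 fold change 0.41, edgeR adjusted p = 0.478) and Id2 (0.64, adjusted p = 0.527), targets of BMP signalling, Gdf10 (-1.22, adjusted p = 0.462), a ligand, and Acvr1 (-0.30, adjusted p = 0.512), a type I BMP receptor. The list's median was 0.03.

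In EET vs PBS, 3 of 59 passed, beside 1.22% of the 15050 genes tested, and of the 3 Ltbp1 and Pcsk5 are described. Ltbp1, which anchors latent TGF-beta in the matrix, was higher, at 403 ± 32.1 CPM in PBS and 532 ± 20.3 CPM in EET (log2 fold change 0.41, SE 0.06, edgeR adjusted p = 0.00574). Pcsk5, a convertase that cleaves precursors of this superfamily, was lower, at 152 ± 13.8 and 104 ± 3.42 CPM (-0.54, SE 0.06, edgeR adjusted p = 0.00167). Neither gene overlapped between the groups (n = 3 each), beside 17.6% of all genes tested without overlap (8.48% higher, 9.17% lower).

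In PBS vs EM, 50 of 63 passed, 31 higher and 19 lower, with a median of 0.49, beside 69.0% of all genes tested (31.1% higher, 37.9% lower). By role, 6 ligands were higher and 6 lower of 13 tested, 4 receptors and co-receptors were higher and 6 lower of 13, and 5 antagonists were higher and 3 lower of 11. Smads and their modulators were mostly higher (8 higher, 2 lower, of 13), as were the targets (6 higher, 1 lower, of 9). Among 4 convertases, 2 were higher and 1 lower.

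Relatives of follistatin were higher in PBS, unlike Fst. Fstl3, which binds activins as follistatin does, went from 1.21 ± 1.03 CPM in EM to 52.6 ± 4.91 CPM in PBS (log2 fold change 5.40, edgeR adjusted p = 4.281e-06), and Fstl1 from 54.3 ± 9.57 to 1307 ± 47.9 CPM (4.57, edgeR adjusted p = 9.882e-08). Smad6, an inhibitor of BMP signalling, went from 6.28 ± 2.73 to 210 ± 27.9 CPM (5.04, edgeR adjusted p = 6.912e-07), and Gdf15, a stress-induced ligand, from 1.18 ± 0.392 to 53.0 ± 12.8 CPM (5.46, edgeR adjusted p = 2.454e-07). Dcn, a matrix proteoglycan that is also on the stromal list, went from 106 ± 42.3 to 1.63 ± 0.656 CPM (-6.02, edgeR adjusted p = 4.268e-06).

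Ligands made by the oocyte were lower. Gdf9 went from 138 ± 93.8 CPM in EM to 1.15 ± 0.0723 CPM in PBS (log2 fold change -6.92, edgeR adjusted p = 5.129e-05), and Bmp15 from 6036 counts over the 5 EM libraries to 1 count over the 3 PBS libraries. Both are also oocyte markers. Bmp5, a ligand that is not on the oocyte list, went from 146 counts over the 5 EM libraries to 1 count over the 3 PBS libraries. Chosen after its values were seen, Tgfbr3 (betaglycan, the co-receptor through which inhibin blocks activin) went from 83.1 ± 19.8 to 5.68 ± 0.518 CPM (-3.89, edgeR adjusted p = 7.775e-07), while the type II activin receptor Acvr2b, chosen in the same way, gave 0.21 (edgeR adjusted p = 0.350).

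**Figure D5:**
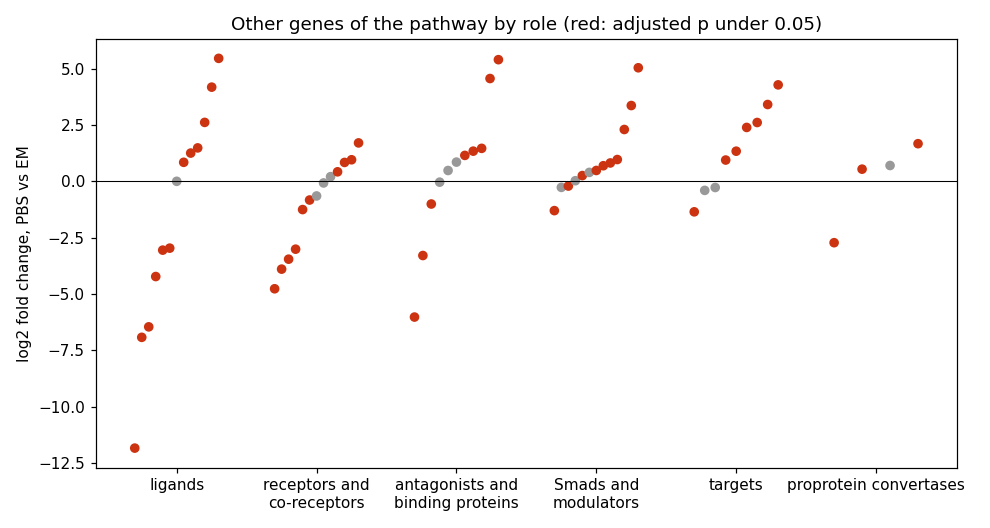
The log2 fold change in PBS vs EM (y axis) of the tested genes of the superfamily's signalling, ordered by size within each role (x axis), in red for an edgeR adjusted p under 0.05. Receptors lie more often below 0 (6 called lower, 4 higher) and Smads and targets more often above it; the ligands Bmp15 and Bmp5 had 1 count each in PBS, so the size of their points is no measured fold.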

How the data were processed

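RNA-seq of mGCs was analysed in 16 libraries (Con and EM, 5 each; PBS and EET, 3 each). The authors deposited raw read counts per Ensembl gene from featureCounts, in a table per experiment. The submitters' processing notes name fastp, HISAT2, StringTie and GRCm39, and the strand setting is not given in the sources used here. Poly(A) RNA had been sequenced with a stranded kit. Per library 14229123 to 29482826 counts were assigned. Same-group libraries differed by more than sampling noise. The labels give groups, and where nothing says which mice entered a cultured library, p-values there measure only the spread between these libraries.

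Each comparison was fitted alone with edgeR 4.0.16 (R 4.3.3): filterByExpr, TMM, quasi-likelihood test and Benjamini-Hochberg adjustment over all genes tested, called at 0.05. SE is the absolute log2 fold change over the root of F. Printed CPM use 1 TMM scale over the 16 libraries, and CPM per kb uses exon lengths of GENCODE vM21. Ratios were compared with exact permutation tests (two-sided, smallest p 0.00794 with 5 against 5). Correlations used log2(CPM + 0.5). DESeq2 1.42.0, RLE, no filter, at least 10 counts, the replicate block, a joint fit and leaving out libraries were alternatives. Of these steps, the edgeR fits were tested on simulated data. Named genes are the 10 members, the called pathway genes (with over 8, the 4 that rose and the 4 that fell most; with none, the 2 smallest p in each direction), and the 3 genes most like Inha, Inhba and Amh. Members and lists were chosen with earlier results of these data known. Of the called pathway genes, 1 is not reported here.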

Additional observations from a re-analysis of the deposited data

Results flagged for a closer look

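In 26 groups of 5 libraries, a highest or lowest library lay far from the others in 2, and chance alone gives about 1 in 20. Fst was 751.9 CPM in Con-mGC-4, against 557.8 to 613.0 CPM in the other Con libraries. Acvr2a was 15.87 CPM in Con-mGC-1, against 21.69 to 23.24 CPM in the other Con libraries.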

How the results depend on the processing

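The calls of Amh, Amhr2, Fst and Bmpr2 in PBS vs EM held under all alternatives that could test them (Amh was dropped by the minimum of 10 counts in every library), and no member was called in EM vs Con under any. In EM vs Con the genes called over the whole table numbered 116 with DESeq2, 4 without a filter and 2 with the replicate block, against 0 by edgeR, and 0 to 46 without single libraries, with 46 without Con-mGC-3. In EET vs PBS they numbered 322 with DESeq2, 662 without a filter and 341 with the replicate block, against 184, and 48 to 436 without single libraries. In PBS vs EM they numbered 11937, 14259 with DESeq2, 14355 without a filter and 8560 with at least 10 counts, and 10792 to 12332 without single libraries. Called genes of the 72 in EET vs PBS were 6 with DESeq2, 13 without a filter and 5 with the replicate block, against 3, and 1 to 11 without single libraries. Members called in EET vs PBS were 2 without a filter (Inha and Bmp2), and 0 to 2 without single libraries. In PBS vs EM they were 4 to 7 without single libraries (4 without PBS-1 or PBS-2). Of 45 pairs of members, 11 passed by Pearson correlation, 3 passed on deviations from group means and 3 without the farthest libraries. The last 3 included the pairs of Inha and of Inhbb with Amhr2, which were not among the 11. The cause of these changes was not tested.

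Changes near 0 took the other sign. In EET vs PBS, Bmpr2 was 0.0007189 with at least 10 counts and 0.001521 with the replicate block, and Inhba in PBS vs EM was 0.01068 without a filter. Without single libraries the log2 fold changes in EM vs Con ran from -0.3798 to 0.005615 for Inha, -0.5122 to 0.1942 for Inhba and -0.06304 to 0.0656 for Acvr2a. In EET vs PBS they ran from -0.009219 to 0.1762 for Acvr2a, -0.04229 to 0.03194 for Bmpr2, -0.08611 to 0.02746 for Fst and -0.0374 to 0.005942 for Acvr1b, and in PBS vs EM from -0.2423 to 0.4359 for Inhba. Log2 ratios in EM vs Con ran from -0.01093 to 0.1679 (Inha to betas), -0.08505 to 0.1845 (Inhba to Inhbb) and -0.1333 to 0.02205 (Fst to betas).

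Same-numbered PBS and EET libraries deviated together at 0.0602, 0.0980 and -0.0237, too weakly to tell pairs from the numbers. The methods call the replicates paired, but neither they nor the labels tie numbers to mice, so results with the replicate block depend on that reading. With 10 counts or fewer, depth limits Amh in culture.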
